A study of Mus musculus with 6 samples.

Results

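The genes described here are those of V(D)J recombination, the reaction that assembles antigen receptor genes, and of the end joining that completes it: Rag1, Rag2, Dntt, Xrcc4, Xrcc5, Xrcc6, Lig4 and Prkdc. They were taken by gene symbol, as every probe set that the platform's probe table assigns to exactly 1 of these genes. This gave 10 probe sets of 6 genes, out of 8251 named genes and 12422 probe sets on the array, and 9 of the 10 passed the filter on dim values (above an intensity of 86.5 on at least 3 arrays) and were tested. Xrcc4 and Lig4 had no such probe set and are not analysed here. Transcripts were measured on 6 single-colour Affymetrix arrays of total RNA from mouse double-negative thymocytes, the precursors that carry neither CD4 nor CD8. By their descriptions, 3 arrays came from RAG1/Ezh2 double mutant mice and 3 from RAG1-deficient mice. By these labels the Rag1 mutation is common to both groups. What differs by label is the mutation of Ezh2, which encodes the methyltransferase of Polycomb repressive complex 2. However, 1 RAG1-deficient array has CD8 marker signals that go against its label, as described below. The labels do not give the alleles, any Cre driver, strain, sex or age, and do not tie the arrays to separate animals. All p-values therefore cover the spread among these samples alone, which may be technical.

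RAG1 and RAG2 form the recombinase that recognises recombination signal sequences beside V, D and J segments and cuts the DNA there. The Ku heterodimer, made of Ku80 (Xrcc5) and Ku70 (Xrcc6), binds the broken ends and recruits the kinase DNA-PKcs (Prkdc). Terminal transferase (Dntt) adds untemplated nucleotides at the junctions, and DNA ligase IV (Lig4) with its partner XRCC4 seals them. In the thymus, Rag1, Rag2 and Dntt are characteristic of immature thymocytes, whereas the end-joining factors are made in most cell types.

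Each deposited value is a scaled intensity, and the level of a probe set cannot be set against that of another. Sample titles follow 3 wordings, here called the numbered, Rag and Thy styles, with 1 double mutant and 1 RAG1-deficient array in each; replicates 1, 2 and 3 have these styles in that order. The 2 arrays of a style deviated together, so differences are also given within each style pair. The Ezh2 probe set stood at 291.5, 650.6 and 723.6 on the double mutant arrays, against 1434.7, 1641.0 and 1789.5 on the RAG1-deficient arrays, without overlap.

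The label was checked against marker genes. Of 11 double-negative thymocyte markers on the array, 10 passed the filter on dim values and 1, Cd44, was dim on all arrays. Il2ra, the CD25 chain of the double-negative stage, stood between 1138.4 and 2012.5 in the double mutant and between 1034.8 and 2559.8 in the RAG1-deficient arrays. One array stood apart. RAG1-deficient replicate 1 had Cd8a at 2973.0 and Cd8b1 at 8425.8, while the highest values elsewhere were 81.3 and 164.4. These signals go against the double-negative label of that array. Whether its cells and its genotype are as labelled was not tested. The 4 double-positive stage markers on the array summed to between 227.1 and 497.0 in the double mutant, against 12160 on that array and 398.8 and 592.7 on the other RAG1-deficient arrays. Its title and that of RAG1-deficient replicate 3 end in WT, which the labels do not explain, and both Rag-style titles lack the letters DN that the other titles carry. The part of this signal in the results was not tested beyond leaving that array out, and the values without it are given below. Of the 11 B lineage markers on the array, 7 were tested, the brightest being Ighm, an immunoglobulin heavy chain gene, at 1602.9 to 2058.7 in the double mutant and 1455.6 to 3285.2 in the RAG1-deficient arrays, and Cd79b, a B cell receptor chain gene, at 842.8 to 1329.3 in the double mutant and 920.1 to 1591.9 in the RAG1-deficient arrays. The defining gene Ebf1 was the dimmest, between 1.7 and 20 in the double mutant and between 4.9 and 14.8 in the RAG1-deficient arrays. The 11 B lineage markers on the array summed to between 3400.5 and 4513.0 in the double mutant and to between 4081.1 and 6047.0 in the RAG1-deficient arrays.

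**Figure D1:**
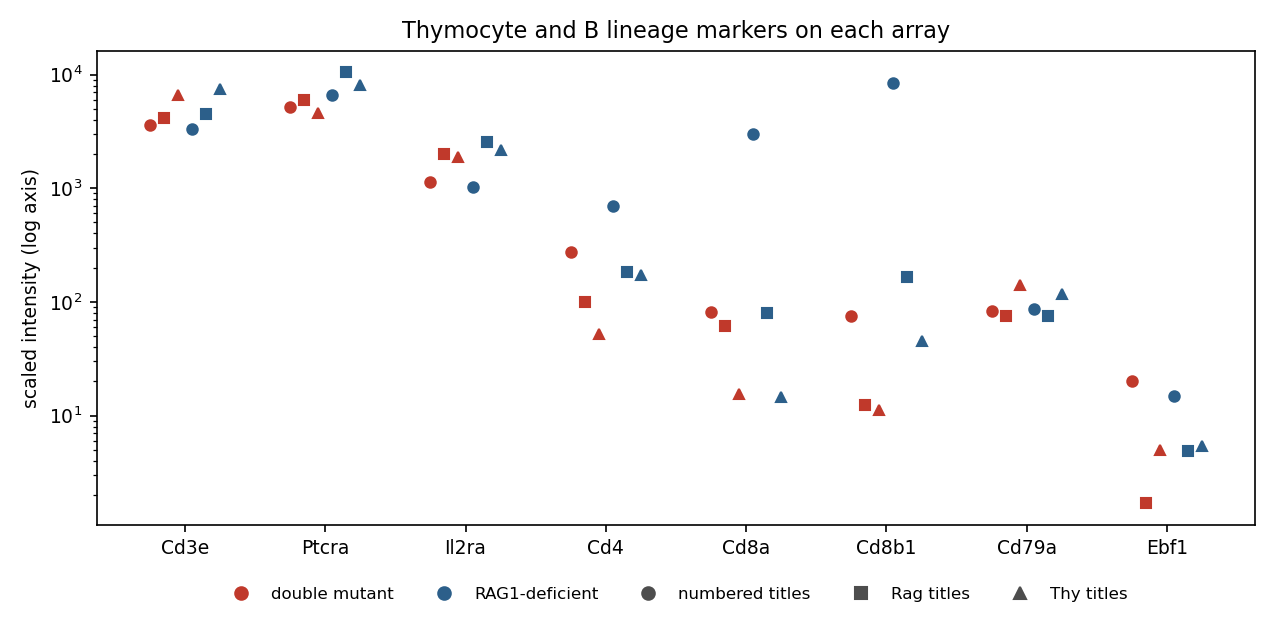
Scaled intensity (log axis) of thymocyte markers (Cd3e, Ptcra, Il2ra), double-positive stage markers (Cd4, Cd8a, Cd8b1) and B lineage markers (Cd79a, Ebf1) on each of the 6 arrays, with the double mutant in red, the RAG1-deficient group in blue and the symbol giving the title style. RAG1-deficient replicate 1 alone has Cd8a at 2973.0 and Cd8b1 at 8425.8. Cd79a and Ebf1 are dim members of the B lineage list, and its brightest, Ighm and Cd79b, are not shown.

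The mean intensity of the double mutant arrays was 0.737 times that of the RAG1-deficient arrays for the bright Rag1 probe set, 0.785 times for Rag2 and 0.731 times for Xrcc6. It was 0.913 times for the brightest Dntt probe set, 0.996 times for Prkdc and 1.13 times for Xrcc5. None of these differences passed the test, and neither did those of the other 3 tested probe sets. The groups were compared with limma on log2(intensity + 23), unpaired and with title style as a block (paired), and p-values were adjusted by Benjamini-Hochberg across the 7642 probe sets that passed the filter, with 0.05 as the threshold. In the unpaired limma fit all 9 had an adjusted p of 1, and in the paired limma fit the smallest was 0.143. The Ezh2 probe set, with a log2 difference of -1.6, did not pass in the unpaired limma fit either (adjusted p = 0.332). It passed in the paired limma fit (adjusted p = 0.0261). A probe set that does not pass is therefore not shown to be unchanged. Over all tested probe sets the share that passed was 0.0393% (unpaired) and 0.667% (paired), so a count of 0 among 9 is near the background. At an unadjusted p under 0.05, the bright Rag1 probe set was lower in the unpaired fit, where 0.903% of all tested probe sets were lower by that rule. By the same rule in the paired fit, 3 of the 9 were lower, those of Rag1, Rag2 and Xrcc6, where 5.4% of all tested probe sets were. Rag1 and Rag2 lie side by side in the genome, and the arrays are the same for all genes, so these are not separate observations.

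To show the genes behind these 3 probe sets, the 250 bases before the start of each are printed from RefSeq (GRCm38.p6), 5′ to 3′ on the gene's own strand. The Rag1 stretch is chr2:101649533-101649782 on the minus strand, the Rag2 stretch is chr2:101624462-101624711 on the plus strand and the Xrcc6 stretch, before the single start the table gives, is chr15:82016119-82016368 on the plus strand. Capitals mark matches, on either strand, to 6 short motifs: the E-box CANNTG, the Runx core TGTGGT, the CCAAT box CCAAT, the GATA core GATAA, the GC box GGGCGG and the Ets core GGAAG.
Rag1: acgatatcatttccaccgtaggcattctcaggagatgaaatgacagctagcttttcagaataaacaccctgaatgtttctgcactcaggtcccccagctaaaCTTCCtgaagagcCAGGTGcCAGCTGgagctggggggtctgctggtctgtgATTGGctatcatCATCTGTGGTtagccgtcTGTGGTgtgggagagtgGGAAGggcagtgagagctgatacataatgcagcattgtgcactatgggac
Rag2: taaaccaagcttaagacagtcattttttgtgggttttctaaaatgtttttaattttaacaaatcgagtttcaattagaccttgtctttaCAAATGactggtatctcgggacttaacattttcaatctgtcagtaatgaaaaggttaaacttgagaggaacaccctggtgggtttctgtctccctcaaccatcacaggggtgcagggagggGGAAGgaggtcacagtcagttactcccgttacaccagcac
Xrcc6: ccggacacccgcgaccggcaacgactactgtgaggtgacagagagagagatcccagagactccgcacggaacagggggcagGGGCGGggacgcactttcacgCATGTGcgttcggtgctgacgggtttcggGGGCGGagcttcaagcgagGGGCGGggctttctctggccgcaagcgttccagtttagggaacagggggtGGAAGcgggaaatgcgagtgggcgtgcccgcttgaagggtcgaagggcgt
The Rag1 stretch holds 3 E-boxes, whose first bases lie 135, 128 and 85 bases before the start, 2 Runx cores at 81 and 67, 1 CCAAT box at 97 and 2 Ets cores at 148 and 50. The E-box at 85 and the Runx core at 81 overlap. The Rag2 stretch holds 1 E-box at 161 and 1 Ets core at 40. The Xrcc6 stretch holds 3 GC boxes at 169, 119 and 100, 1 E-box at 148 and 1 Ets core at 50. Of the 32851 stretches of this length in the table, 66.2% hold an E-box, 14.0% a Runx core, 33.8% a CCAAT box, 22.6% a GATA core, 32.7% a GC box and 64.1% an Ets core. The share of G and C was 50.8% for Rag1, 41.2% for Rag2 and 65.2% for Xrcc6, against a median of 52.4% over all stretches. These matches describe letters and not binding.

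Rag1, the catalytic subunit of the recombinase, was read by 2 probe sets. The bright one (93683_at) stood at 5394.4, 5225.7 and 5170.8 on the double mutant arrays, against 6932.9, 7240.7 and 7264.0 on the RAG1-deficient arrays. The groups did not overlap, and the arrays within a group were nearly equal. The mean was 5264 ± 117 in the double mutant and 7146 ± 185 in the RAG1-deficient group (SD, n = 3 each), a ratio of 0.737. The log2 difference was -0.44 ± 0.19 (SE), with a 95% interval from -0.87 to -0.01, and did not pass (unpaired limma adjusted p = 1; paired limma adjusted p = 0.143). It was -0.36 in the numbered pair, -0.47 in the Rag pair and -0.49 in the Thy pair. Without RAG1-deficient replicate 1, the array with the CD8 signal, it was -0.46.

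The within-group spread of this probe set was the smallest of all tested probe sets, by the larger of its coefficients of variation. The coefficient was 2.21% in the double mutant and 2.59% in the RAG1-deficient group, and it was the 1 probe set among 7642 tested with both at or below 2.59%. The limma standard error draws on the spread of other probe sets and is wider than these replicates alone would give. The exact two-sided permutation p was 0.1, and no split of 6 arrays into groups of 3 can give less.

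The other Rag1 probe set (161740_r_at) was dim and scattered. It stood at 120.8, 236.6 and 207.3 on the double mutant arrays, against 238.1, 152.2 and 321.1 on the RAG1-deficient arrays. The groups overlapped, and the double mutant array was the higher one in the Rag pair (0.57) and the lower one in the numbered (-0.86) and Thy (-0.58) pairs. Its log2 difference was -0.29 ± 0.36 (SE), with a 95% interval from -1.11 to 0.53, and it shrank to -0.036 without double mutant replicate 1 and was -0.261 without RAG1-deficient replicate 1. Rag1 is the gene mutated in both groups. The labels do not say which part was lost or where the probes lie in relation to it, so the Rag1 signal is no check of the mutation.

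Rag2, the regulatory subunit, stood at 644.4, 582.5 and 829.5 on the double mutant arrays, against 894.5, 770.0 and 954.2 on the RAG1-deficient arrays. The double mutant array was the lower one in each style pair, but the groups overlapped, since double mutant replicate 3 lay above RAG1-deficient replicate 2. The mean was 685 ± 129 in the double mutant and 873 ± 94.0 in the RAG1-deficient group (SD, n = 3 each). The log2 difference was -0.35 ± 0.22 (SE), with a 95% interval from -0.86 to 0.16 (paired limma adjusted p = 0.338). By pair it was -0.46 (numbered), -0.39 (Rag) and -0.20 (Thy), and without RAG1-deficient replicate 1 it was -0.33. Within arrays, the log2 ratio of the bright Rag1 probe set to Rag2 differed between the groups by -0.09 on average. It was higher in the double mutant in the numbered pair (0.10), and lower in the Rag pair (-0.08) and the Thy pair (-0.29), with an exact two-sided permutation p of 0.8.

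**Figure D2:**
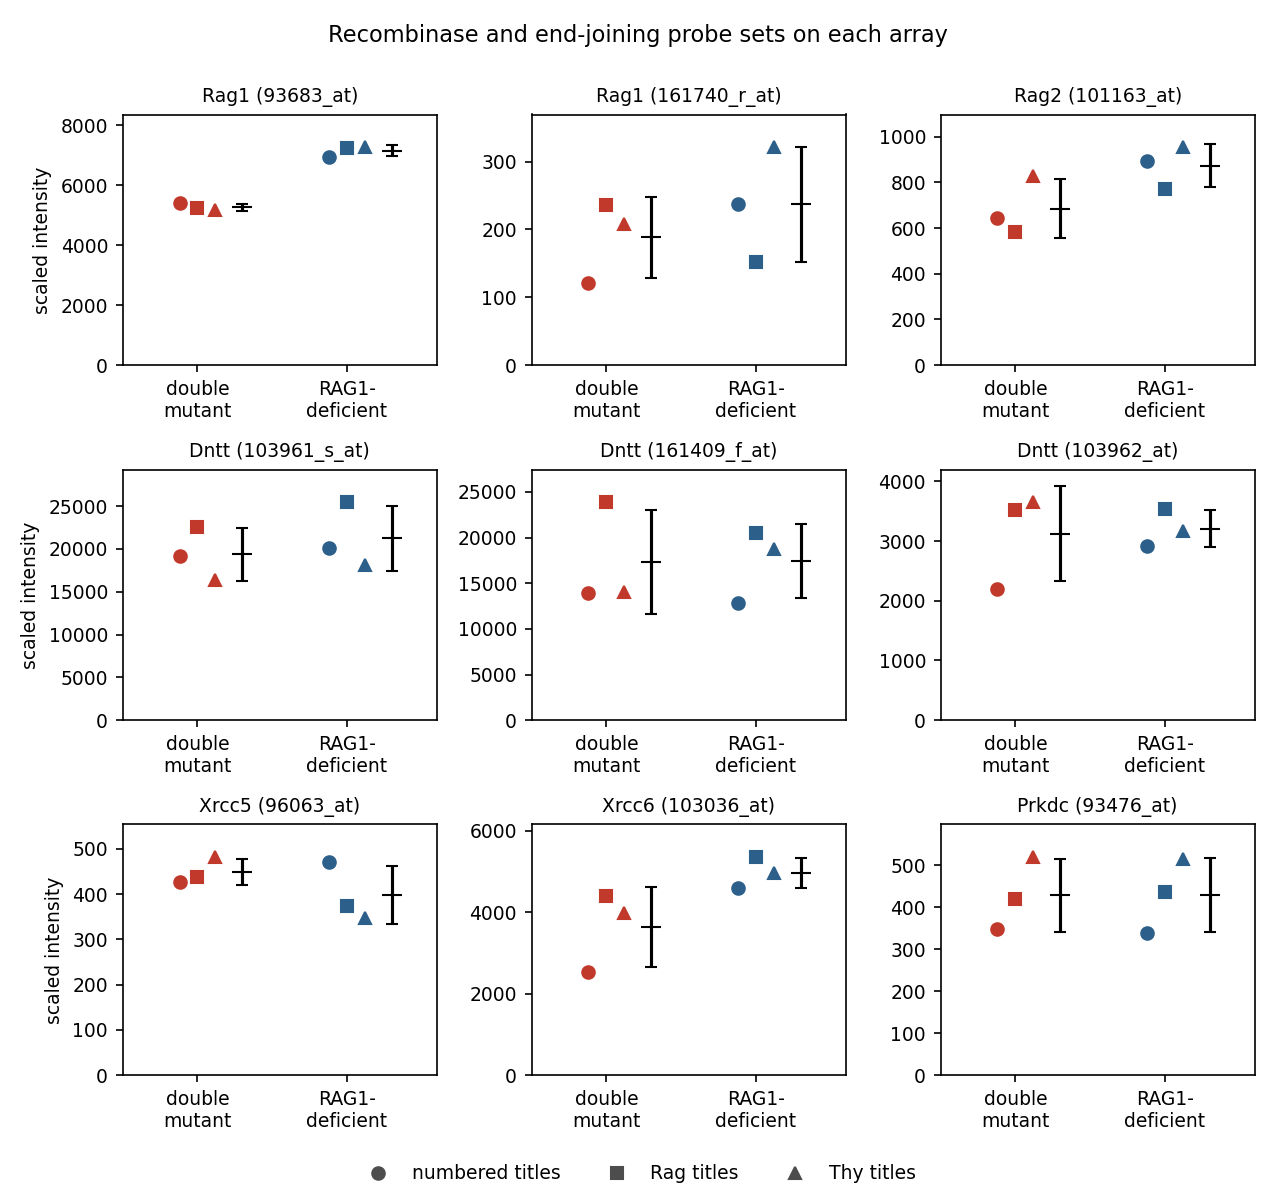
Scaled intensity of each of the 9 tested probe sets on each array (axes from 0, one scale per panel), with the double mutant in red at the left and the RAG1-deficient group in blue at the right; symbols give the title style, and the bar beside them is the mean ± SD of 3 arrays. The groups do not overlap for the bright Rag1 probe set and for Xrcc6, and they overlap in the other 7 panels.

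Dntt, the terminal transferase, was bright in both groups and was read by 3 probe sets assigned to this gene. The brightest (103961_s_at) stood at 19161.4, 22584.8 and 16406.8 on the double mutant arrays, against 20157.7, 25458.5 and 18102.4 on the RAG1-deficient arrays. The Rag-style array was the highest and the Thy-style array the lowest in both groups. Its log2 difference was -0.13 ± 0.24 (SE), with a 95% interval from -0.68 to 0.42, and lay between -0.17 and -0.07 in the 3 pairs. It was -0.159 without RAG1-deficient replicate 1. The second (161409_f_at) stood at 13970.4, 23872.9 and 14027.8 on the double mutant arrays, against 12842.1, 20545.0 and 18797.5 on the RAG1-deficient arrays, a log2 difference of -0.03 ± 0.30 (SE). The third (103962_at) stood at 2202.1, 3521.4 and 3651.0, against 2921.1, 3545.3 and 3164.1, a difference of -0.07 ± 0.25 (SE). Both changed sign between pairs. Without RAG1-deficient replicate 1 the second was -0.232 and the third -0.135. By its name, the _f_at probe set can detect related transcripts, and the _s_at probe set can be shared by several.

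The Ku subunits, obligate partners in the protein, differed in the sign of their measured differences over all arrays, but not in the numbered pair. Xrcc6 (Ku70, 103036_at) stood at 2524.8, 4408.3 and 3972.6 on the double mutant arrays, against 4609.7, 5354.8 and 4955.5 on the RAG1-deficient arrays. The groups did not overlap, and double mutant replicate 1 lay far below the other arrays. The mean was 3635 ± 986 in the double mutant and 4973 ± 373 in the RAG1-deficient group (SD, n = 3 each), a ratio of 0.731. The log2 difference was -0.49 ± 0.26 (SE), with a 95% interval from -1.07 to 0.10, and did not pass (unpaired limma adjusted p = 1; paired limma adjusted p = 0.217). It was -0.86 in the numbered pair, -0.28 in the Rag pair and -0.32 in the Thy pair. Leaving out double mutant replicate 1 brought the difference to -0.245, and leaving out RAG1-deficient replicate 1 to -0.54. The exact two-sided permutation p was 0.1.

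Xrcc5 (Ku80, 96063_at) stood at 425.8, 437.4 and 481.3 on the double mutant arrays, against 469.6, 374.0 and 347.3 on the RAG1-deficient arrays. The highest RAG1-deficient value lay inside the double mutant range, and it came from replicate 1. The log2 difference was 0.17 ± 0.22 (SE), with a 95% interval from -0.33 to 0.68 (paired limma adjusted p = 0.715), and without RAG1-deficient replicate 1 it was 0.295. By pair it was -0.13 (numbered), 0.21 (Rag) and 0.45 (Thy). Another probe set of Xrcc5 (161686_i_at) was at the bottom of the scale, between 0.8 and 2.7 in the double mutant and between 1.3 and 8.9 in the RAG1-deficient arrays, and was not tested. The log2 ratio of Xrcc5 to Xrcc6 within an array, counted from its mean over the RAG1-deficient arrays, was 1.08, 0.31 and 0.59 on the double mutant arrays, against 0.35, -0.18 and -0.17 on the RAG1-deficient arrays. The double mutant array was higher in each pair, by 0.73, 0.49 and 0.76, but the groups overlapped, and the exact two-sided permutation p was 0.2. This ratio was chosen after the values of both genes were seen.

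Prkdc, the catalytic subunit of the DNA-dependent protein kinase, was the member with the smallest difference. It stood at 347.5, 419.0 and 519.5 on the double mutant arrays, against 339.0, 437.6 and 514.7 on the RAG1-deficient arrays. The values followed the title style closely, lowest in the numbered and highest in the Thy arrays of both groups. The log2 difference was -0.004 ± 0.26 (SE), with a 95% interval from -0.59 to 0.58, and lay between -0.06 and 0.03 in the pairs. Without RAG1-deficient replicate 1, which breaks up the numbered pair, it was -0.157. The paired 95% interval, from -0.34 to 0.34, was narrower and still admits differences of the size measured for Rag1's dim probe set.

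**Figure D3:**
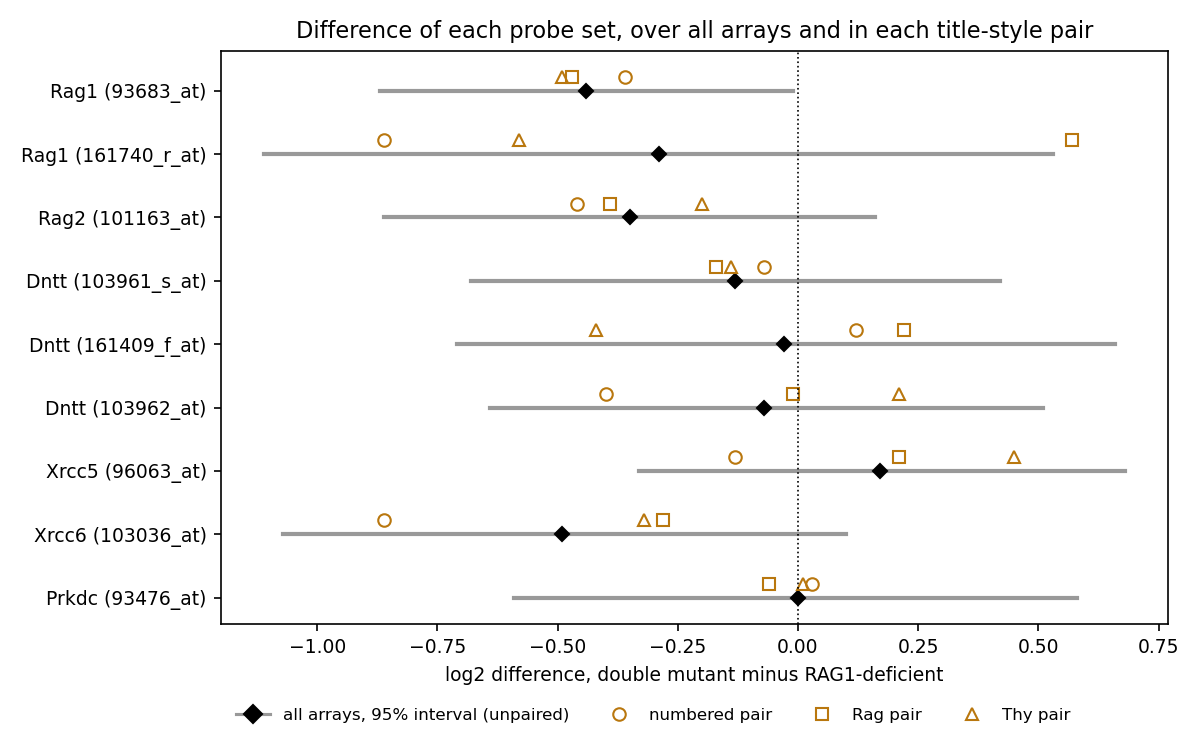
Log2 difference (double mutant minus RAG1-deficient, on log2(intensity + 23)) of each tested probe set, with diamonds for all 6 arrays, grey bars for the 95% interval of the unpaired limma fit and open symbols for each title-style pair. The bright Rag1 probe set, Rag2, Xrcc6 and the brightest Dntt probe set lie below 0 in all 3 pairs, and the other 5 differ in sign between pairs.

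Counted over the 9 tested probe sets, in 4 the double mutant array was the lower one of each pair (Rag1 bright, Rag2, Dntt brightest and Xrcc6), where 17.1% of all tested probe sets were. The groups did not overlap, with the double mutant lower, for 2 of the 9 (Rag1 bright and Xrcc6), where 2.92% of all tested probe sets met this rule. Taking the brightest probe set of each gene, 5 of 6 genes lay below 0 and 1 above, with a median log2 difference of -0.24, against 0 over the 5751 tested named genes. These counts describe a short list whose genes share arrays. In bulk samples such as these, fewer cells of a type and less RNA per cell cannot be told apart. Of the 10 tested double-negative markers, 8 also lay below 0 (median -0.18). The lowest, at -0.66, was Ptcra, which encodes a chain of the pre-T cell receptor. Ptcra stood at 5140.3, 5964.0 and 4613.8 on double mutant and 6588.4, 10480.1 and 8062.6 on RAG1-deficient arrays. It does not stand for the rest of the list. Cd3e had -0.06, Cd3g -0.12 and Il2ra -0.14, while Kit (0.49) and Gata3 (0.11) lay above 0. The double-negative markers summed to between 52348 and 78867 in the double mutant and to between 56673 and 91413 in the RAG1-deficient arrays. The 7 NK markers on the array, led by the granzyme gene Gzma, summed to between 7656 and 9928 in the double mutant and to between 2660 and 4119 in the RAG1-deficient arrays, without overlap. Without Gzma the other 6 summed to 1831.9, 1475.9 and 2673.4 on the double mutant arrays, against 1323.2, 1925.4 and 1415.5 on the RAG1-deficient arrays, which overlap. Of the 5 tested NK markers, Gzma (1.79, paired limma adjusted p = 0.00356) and the granzyme gene Gzmb (1.31, paired limma adjusted p = 0.0261) passed in the paired fit and neither in the unpaired fit, and Klrd1, an NK receptor gene, had -0.32. All 7 tested B lineage markers lay below 0 (median -0.31), as did 8 of 11 tested myeloid and dendritic markers (median -0.37) and 5 of 6 tested erythroid and stromal markers (median -0.08), with none passing in either fit. The 14 myeloid and dendritic markers summed to between 8903 and 23332 in the double mutant and to between 7054 and 32947 in the RAG1-deficient arrays. The 8 erythroid and stromal markers summed to between 2316 and 32505 in the double mutant and to between 1809 and 32713 in the RAG1-deficient arrays. On the numbered and Rag-style arrays most of that was Hba-a1, a haemoglobin gene. Hba-a1 was lowest in the Thy-style array of both groups (794.2 in the double mutant and 374.6 in the RAG1-deficient array). There Col1a2 of the same list was higher, at 961.8 in the double mutant and 861.2 in the RAG1-deficient array. The part of these markers in the recombinase values was not tested.

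The remaining genes of end joining were scarce on the array. Of 10 further end-joining genes, 3 were on the array and tested, and 0 passed in either limma fit or had an unadjusted p under 0.05. Polm, the polymerase mu that fills gaps during end joining, had a log2 difference of 0.01 ± 0.35 (SE). Aplf, a histone chaperone of end joining, had -0.04 ± 0.50 (SE), and Polb, a repair polymerase of the same family as Dntt, had -0.13 ± 0.38 (SE). The median of the 3 was -0.04.

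Genes that sense breaks or help RAG to bind lay mostly above 0. Of 14 listed, 9 were tested, 8 above 0 and 1 below, with a median log2 difference of 0.31, and 0 passed in either limma fit. At an unadjusted p under 0.05, 0 of the 9 were higher without the pairing and 1 with it, where 2.49% and 8.12% of the 5751 tested named genes were, so both counts are near the background. That 1 was H2ax, the histone variant phosphorylated around breaks, which stood at 4938.8, 5197.6 and 6217.9 on the double mutant arrays, against 4773.8, 3800.8 and 3929.0 on the RAG1-deficient arrays, without overlap. Its log2 difference was 0.39 ± 0.21 (SE; paired limma adjusted p = 0.305). Rad50 and Nbn, members of the complex that tethers broken ends, had 0.40 ± 0.25 (SE) and 0.33 ± 0.25 (SE). The kinase Atm had the largest log2 difference of the list, 0.59 ± 0.82 (SE), and the most scatter, with 155.5, 127.6 and 285.3 on the double mutant arrays, against 87.6, 18.0 and 512.7 on the RAG1-deficient arrays. Its mean intensity went the other way, at 0.919 times that of the RAG1-deficient group, and its log2 difference in the Thy pair was -0.80. Hmgb2, a DNA-bending protein that assists RAG, had 0.31.

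Homologous recombination genes, which repair breaks from a sister copy in dividing cells, also lay mostly above 0. Of 18 listed, 10 were tested, 8 above 0 and 2 below, with a median of 0.30, and 0 passed in either limma fit (at an unadjusted p under 0.05, 0 were higher without the pairing, where 2.49% of all tested named genes were, and 2 with it, where 8.12% were; 0 were lower in either). The single-strand binding subunits Rpa1 and Rpa3 had 0.48 ± 0.25 (SE) and 0.46 ± 0.25 (SE), with paired limma adjusted p of 0.195 and 0.218. These are the 2 highest differences of the list and do not stand for the rest of it, and the remaining subunit Rpa2 had 0.08 ± 0.25 (SE). Of 7 genes of other ligases and alternative end joining, 6 were tested, 4 above and 2 below 0, with a median of 0.08 and 0 passing in either limma fit (at an unadjusted p under 0.05, 0 were higher without the pairing and 2 with it, against the same shares of all genes, and 0 were lower in either). Lig1, the ligase of DNA replication, stood at 1702.6, 965.5 and 1540.8 on the double mutant arrays, against 1101.2, 850.6 and 846.6 on the RAG1-deficient arrays, a log2 difference of 0.55 ± 0.27 (SE). The flap nuclease Fen1 had 0.38 ± 0.24 (SE) and the repair scaffold Xrcc1 0.09 ± 0.31 (SE), with another Xrcc1 probe set at -0.26. Many genes of these lists also serve DNA replication, and the 8 cycling markers tested were all above 0, with a median of 0.36. Their sums lay between 23370 and 26020 in the double mutant and between 18073 and 19953 in the RAG1-deficient arrays, and their part in the repair lists was not tested.

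**Figure D4:**
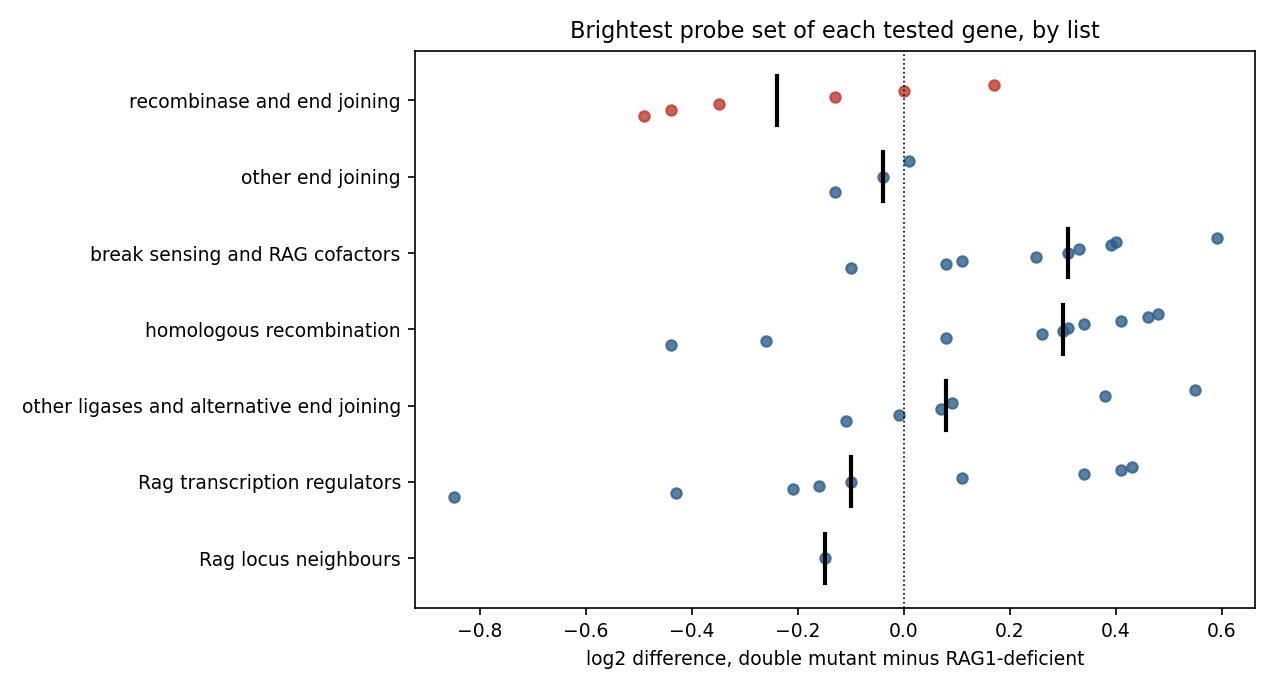
Log2 difference (double mutant minus RAG1-deficient, on log2(intensity + 23)) of the brightest probe set of each tested gene, with the recombinase and end-joining genes in red, the related lists in blue, and black bars for list medians; the dotted line is the median of all tested named genes. The medians are -0.24 for the recombinase and end-joining genes, 0.31 for break sensing and 0.30 for homologous recombination, and no gene shown passed in either fit.

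Transcription factors known to act on the Rag locus went both ways. Of 13 listed, 9 were tested, 4 above 0 and 5 below, with a median of -0.10, and 0 passed in either limma fit (at an unadjusted p under 0.05, 0 were lower without the pairing, where 1.01% of all tested named genes were, and 1 with it, where 5.58% were; 0 were higher in either). The B lineage factor Pax5 had -0.85 ± 0.48 (SE) at dim values of 33.2, 53.5 and 152.7 on the double mutant arrays, against 156.2, 121.5 and 147.3 on the RAG1-deficient arrays. Tcf3, the E protein gene E2A, had 0.41 ± 0.31 (SE), and Satb1, a chromatin organiser of thymocytes, had -0.43 ± 0.33 (SE). Traf6, which lies close to Rag1 on the chromosome, was read by 3 tested probe sets with log2 differences of -0.15, -0.06 and -0.47. None of these 3 passed in either fit.

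The profiles most like those of the 3 lymphoid members were named by Pearson correlation of log2 values over the 6 arrays, as a description. The search covered the tested probe sets of 5751 named genes, and with 6 arrays high values are to be found for many genes. For the bright Rag1 probe set these were Wdr81 (0.981), Snapin (0.966) and Gpd1 (0.962). Gpd1, a glycerol phosphate dehydrogenase gene, stood at 51.3, 44.4 and 41.0 on double mutant arrays, against 289.4, 183.7 and 219.5 on RAG1-deficient arrays. Its double mutant values all lay under the filter level and its RAG1-deficient values all above it. Gpd1 therefore passed the filter through the RAG1-deficient arrays alone. Its measured difference was larger than that of Rag1, but how much larger is uncertain, because the double mutant values were dim. For Rag2 they were Ptprv (0.986), Sapcd1 (0.984) and Pipox (0.983), and for the brightest Dntt probe set Coq9 (0.996), Pnck (0.994) and Acot13 (0.993). Coq9, a gene of ubiquinone synthesis, stood at 457.1, 678.8 and 347.5 on the double mutant arrays, against 500.4, 842.0 and 417.1 on the RAG1-deficient arrays, highest in the Rag-style arrays as Dntt was.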

How the data were processed

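The authors deposited 1 table of linear intensity values for 12488 probe sets on 6 arrays. Its software is not given in the sources used here. The values show that each array had been scaled to 1 common 2%-trimmed mean (500.293 to 500.37), and such scaling masks any shift that most transcripts share. Between 55.2% and 64.3% of the probe sets of an array lay above the filter level. The number of arrays limits the precision.

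Without 66 control probe sets, 12422 remained. Genes were named by the probe table of the platform and updated by gene number through RefSeq (GRCm38.p6), and 10833 probe sets had 1 gene. The 20th percentile of all values, rounded, gave the pseudocount of 23. Probe sets above 86.5, the 40th percentile, on at least 3 arrays were tested, which left 7642. The comparison used limma 3.58.1 under R 4.3.3 (lmFit, eBayes with trend; tested on simulated data), two-sided. Differences are double mutant minus RAG1-deficient, and errors marked SE are those of the unpaired fit. Log2 differences are on the log2(intensity + 23) scale, which understates changes of dim probe sets. Ratios of group means are taken from the intensities without the pseudocount. Deviations of the 2 arrays of a title style correlated at 0.570 (numbered), 0.736 (Rag) and 0.602 (Thy) across tested probe sets, above the limit of 0.1 set for pairing; no label states a shared litter or day. Figures used matplotlib 3.10.9.

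The genes, the 6 related lists and the 7 marker lists were chosen with earlier results of these data known. Every probe set of the recombinase and end-joining genes is given. Of each related list the 3 genes with the smallest unadjusted p are named, except that 1 of them is not reported here; Atm, Hmgb2, Rpa2, the single marker genes and the ratio of Xrcc5 to Xrcc6 were named after their values were seen. Alternatives were the pairing, the pseudocount, the scaling, the filter, the trend and leaving out arrays or pairs.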

Additional observations from a re-analysis of the deposited data

How the results depend on the processing

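No recombinase or end-joining probe set passed under any of the 16 alternatives, and the smallest adjusted p of a limma fit was 0.0678, for Xrcc6 with the replicate block after the Rag pair was left out. That fit rests on few arrays, and its p-values are unstable. The signs of both Rag1 probe sets, Rag2, Xrcc6 and Xrcc5 held in all 16, with log2 differences of -0.479 to -0.415 for the bright Rag1 probe set, -0.49 to -0.243 for Rag2, -0.644 to -0.245 for Xrcc6 and 0.04 to 0.33 for Xrcc5. The dim Rag1 probe set ranged from -0.72 to -0.006. The differences of Dntt and Prkdc were near 0 and took either sign when 1 array or 1 pair was left out. Over these settings Dntt ranged from -0.245 to 0.009 (103961_s_at, positive when RAG1-deficient replicate 2 was dropped), from -0.207 to 0.163 (103962_at; unpaired, from -0.199) and from -0.284 to 0.169 (161409_f_at; unpaired, up to 0.106). Prkdc ranged from -0.157 to 0.13. The positive values of 103962_at came on dropping double mutant replicate 1 (0.163), RAG1-deficient replicate 2 (0.004) or the numbered pair (0.098). Those of 161409_f_at came on dropping double mutant replicate 1 (0.102) or 3 (0.099), RAG1-deficient replicate 2 (0.106) or 3 (0.042), or the Thy pair (0.169). Those of Prkdc came on dropping double mutant replicate 1 (0.13) or 2 (0.002), RAG1-deficient replicate 2 (0.016) or 3 (0.128), or the Rag pair (0.023). The cause was not tested.

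Among all probe sets, 3 were called higher and 0 lower by the unpaired fit, and 5 higher after quantile scaling or median centring. Dropping 1 array gave between 0 (replicate 3 of either genotype) and 6 (RAG1-deficient replicate 1) called higher, with 1 on dropping double mutant replicate 2, and 0 called lower. The replicate block gave 43 higher and 8 lower. After dropping a pair from the blocked fit the counts were 12 higher and 2 lower (numbered dropped), 127 and 64 (Rag dropped) and 3 and 0 (Thy dropped). Such fits rest on few arrays and lean on the spread of other probe sets, so their counts and p-values are unstable. The block changed no call of a recombinase or end-joining probe set.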

Other observations

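Runx1 and Ikzf1, known regulators of the Rag locus, differed more between title styles than between genotypes. These genes were picked after their values were seen. The Rag-style arrays also differed from the others as a whole. Their median intensity was 124.85 (double mutant) and 121.5 (RAG1-deficient), against 166.7 to 179.8 on the other arrays. On them 55.3% and 55.2% of probe sets lay above the filter level, against 61.5% to 64.3%. Runx1, a transcription factor of thymocytes, stood at 481.5 in the double mutant and 303.3 in the RAG1-deficient array of the Rag style, against 2106.7 and 1991.8 on the other double mutant arrays and 1747.7 and 5229.8 on the other RAG1-deficient arrays. Its log2 difference between the Rag-style arrays and the other 4 was -2.63, and that between the genotypes was -0.16. Between the genotypes in the Thy pair alone it was -1.38. The brighter probe set of Ikzf1, the Ikaros gene, stood at 82.9 in the double mutant and 54.6 in the RAG1-deficient array of the Rag style, against 656.1 and 1357.3 on the other double mutant arrays and 723.7 and 673.6 on the other RAG1-deficient arrays. Another probe set of Ikzf1 gave -0.38 for the same contrast between styles, against -3.20 for the brighter one. The bright Rag1 probe set showed no such gap, at 5225.7 in the double mutant and 7240.7 in the RAG1-deficient array of the Rag style. Rag2, however, was lowest on the Rag-style array of both groups. It stood there at 582.5 in the double mutant, against 644.4 and 829.5 on the other double mutant arrays. In the RAG1-deficient group it stood there at 770.0, against 894.5 and 954.2. Any link of Runx1 and Ikzf1 to the Rag1 and Rag2 values was not tested.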
